A study of Mus musculus with 16 samples.

Results

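The genes of adrenomedullin, of its relative adrenomedullin 2 and of their receptor parts were followed in mouse lung after a CAV1 target site blocker and bleomycin. The members are Adm, Adm2, Calcrl, Ramp1, Ramp2 and Ramp3, and all 9 spots annotated to these 6 genes were used, of 62976 spots and 20863 named genes on the array. The genes were picked for the higher Calcrl signal with the CAV1 blocker and for the response of Adm. Comparisons between the blockers are therefore given below as values, with no test for these genes, and Adm is a description throughout.

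Whole-lung RNA of C57BL/6 mice aged 9 to 12 weeks was hybridised to a 1-colour Agilent array, 1 array for each of 16 samples. The groups were bleomycin with the CAV1 blocker (6 arrays), bleomycin with the control blocker (6), phosphate-buffered saline (PBS) with the CAV1 blocker (2) and PBS with the control blocker (2). A target site blocker (TSB) is an oligonucleotide made to shield the site where a microRNA would bind a transcript, here that of Cav1, the main coat protein of caveolae. All mice received a blocker by the trachea on days 4 and 2 ahead of bleomycin or PBS and again 4 days afterwards. The CAV1 blocker was given at 5 mg/kg. Bleomycin, a drug used to injure the lung and cause fibrosis, was given at 1 unit/kg. The labels give neither the dose of the control blocker nor the time of lung collection. Nor do they state that samples came from separate animals, and the spread behind each p-value is that between samples.

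Adrenomedullin is a vasodilator peptide made by endothelial and many other cells, and adrenomedullin 2, also called intermedin, is a related peptide. Calcrl encodes the calcitonin receptor-like receptor, a G protein-coupled receptor that reaches the cell surface and gains its ligand preference only with a receptor activity-modifying protein. With RAMP1 it forms the receptor of calcitonin gene-related peptide (CGRP), and with RAMP2 or RAMP3 it forms adrenomedullin receptors. Their signal raises cyclic AMP, and in mice the ligand, Calcrl and Ramp2 are needed for blood and lymph vessels to develop and stay tight.

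The bases before the start sites of Adm and Calcrl are shown because the members were picked for these 2 genes. They come from RefSeq, mouse build GRCm38.p6, read 5′ to 3′ on the gene's own strand. Entries were found for 5 of the 6 members, all but Ramp2. The Adm sequence lies at chr7:110627407-110627656 (+) and ends at the base before the start site. The Calcrl window of 250 bases overlaps the annotated gene by 139 bases, and only the 111 bases outside the gene, at chr2:84425406-84425516 (-), are printed. Capitals mark matches to the motifs searched on both strands, which were ACGTG and GCGTG (cores of the hypoxia response element), TATAA (the TATA box), GGGCGG (a GC box) and TGANTCA (the AP-1 site).
Adm: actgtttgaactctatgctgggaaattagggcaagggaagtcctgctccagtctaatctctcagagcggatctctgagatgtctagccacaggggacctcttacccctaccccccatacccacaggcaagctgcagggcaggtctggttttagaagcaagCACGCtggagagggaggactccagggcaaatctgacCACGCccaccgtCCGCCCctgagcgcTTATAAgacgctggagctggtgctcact
Calcrl: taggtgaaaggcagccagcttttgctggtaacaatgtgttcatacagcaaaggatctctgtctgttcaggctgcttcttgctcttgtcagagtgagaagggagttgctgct
The Adm window held GCGTG on the opposite strand at -90 and -54, GGGCGG on the opposite strand at -42, and TATAA at -27, which overlaps a match on the opposite strand at -28. The Calcrl letters printed held none of the 5 motifs, and the whole 250-base window held 1 GGGCGG, at -83, in the part that overlaps the gene. Of 32851 mouse windows of 250 bases, 28.2% held GCGTG, 16.6% ACGTG, 22.8% TATAA, 32.7% GGGCGG and 6.75% TGANTCA. These matches describe the letters only.

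Some facts of the arrays bear on what follows. The 8 alveolar epithelium markers had a mean log2 signal of 14.80 to 15.22 in all 16 arrays, as their lung label says. Skeletal muscle markers (12 genes) and stratified squamous epithelium markers (10 genes) were low in 5 arrays, namely array 3 of bleomycin with the CAV1 blocker, arrays 2 and 6 of bleomycin with the control blocker and both arrays of PBS with the CAV1 blocker. The muscle mean was 6.98 to 8.18 in these 5 arrays and 9.73 to 12.07 in the other 11. Cav1 itself had a log2 signal of 10.80 to 11.39 in bleomycin CAV1 blocker arrays, 10.47 to 10.98 in bleomycin control blocker arrays, 11.12 to 11.14 in PBS CAV1 blocker arrays and 10.69 to 11.38 in PBS control blocker arrays. Signals below are log2 values of a spot, differences are log2 differences of group means, and ± is the SD between arrays.

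Among the ligands, Adm (chr7:110627657-110629820) differed between the blockers in opposite directions after bleomycin and after PBS. Its signal was 8.05 to 8.62, with a median of 8.50, in bleomycin CAV1 blocker arrays, and 8.65 to 9.05, with a median of 8.99, in bleomycin control blocker arrays. It was 8.64 and 9.21 in PBS CAV1 blocker arrays and 8.15 and 8.44 in PBS control blocker arrays. All 6 bleomycin CAV1 blocker arrays lay below all 6 bleomycin control blocker arrays, while both PBS CAV1 blocker arrays lay above both PBS control blocker arrays. The group means were 8.42 ± 0.24 (n = 6) with bleomycin and the CAV1 blocker and 8.90 ± 0.18 (n = 6) with bleomycin and the control blocker, a difference of -0.48. With PBS they were 8.93 ± 0.41 (n = 2) under the CAV1 blocker and 8.30 ± 0.21 (n = 2) under the control blocker, a difference of 0.63. This difference was 0.34 without PBS CAV1 blocker array 2, the highest of all 16 arrays, and 0.92 without PBS CAV1 blocker array 1.

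Set against PBS, Adm was thus lower after bleomycin under the CAV1 blocker, with a difference of -0.50, and higher after bleomycin under the control blocker, with a difference of 0.61. Under the CAV1 blocker all 6 bleomycin arrays lay below both PBS arrays, though the nearest pair, 8.62 and 8.64, nearly touched. Under the control blocker all 6 bleomycin arrays lay above both PBS arrays. The value under the CAV1 blocker came to -0.79 without PBS CAV1 blocker array 1 and to -0.22 without array 2. From highest to lowest the group means ran PBS CAV1 blocker, bleomycin control blocker, bleomycin CAV1 blocker and PBS control blocker. The first and the second in that order overlapped, as did the third and the fourth. The difference between the effects of bleomycin under the CAV1 blocker and under the control blocker was -1.11.

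**Figure D1:**
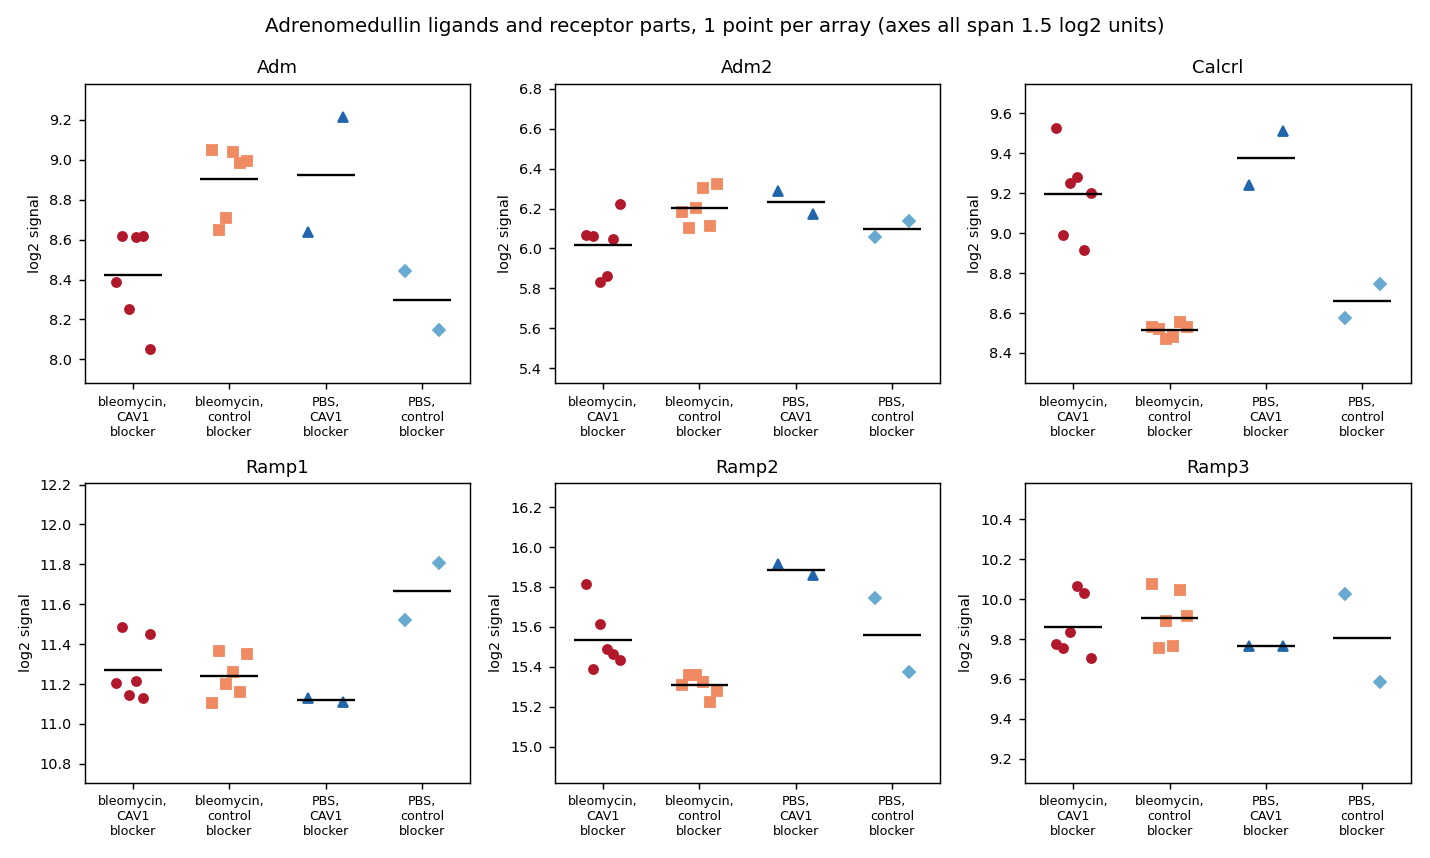
Log2 signal (y axis) of the brightest spot of each of the 6 genes in the 16 arrays, by group (x axis), with 1 point per array and a line at the group mean. Calcrl lies higher in all CAV1 blocker arrays than in all control blocker arrays, and Adm lies lower with the CAV1 blocker after bleomycin and higher with it after PBS.

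Adm2 (chr15:89322720-89324731) was dim, and lay between the 7.64th and the 44.99th percentile of all spots of its array, so small differences may not be resolved. Its signal was 5.83 to 6.22, with a median of 6.06, in bleomycin CAV1 blocker arrays and 6.10 to 6.32, with a median of 6.19, in bleomycin control blocker arrays. It was 6.17 and 6.29 in PBS CAV1 blocker arrays and 6.06 and 6.14 in PBS control blocker arrays. The bleomycin groups overlapped, and the differences between the blockers were -0.19 after bleomycin and 0.13 after PBS. Bleomycin against PBS gave -0.22 under the CAV1 blocker (limma, adjusted p = 0.337) and 0.11 under the control blocker (limma, adjusted p = 0.637). Neither passed the threshold of an adjusted p under 0.05. The means ran from 6.23 ± 0.08 (PBS CAV1 blocker, n = 2) through 6.20 ± 0.09 (bleomycin control blocker, n = 6) and 6.10 ± 0.06 (PBS control blocker, n = 2) to 6.02 ± 0.15 (bleomycin CAV1 blocker, n = 6). Neighbours in this order overlapped.

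Calcrl (chr2:84330626-84425405), the receptor, had a higher signal with the CAV1 blocker in both settings. It read 8.92 to 9.53, with a median of 9.23, in bleomycin CAV1 blocker arrays, and 8.47 to 8.56, with a median of 8.52, in bleomycin control blocker arrays. It read 9.24 and 9.51 in PBS CAV1 blocker arrays and 8.57 and 8.75 in PBS control blocker arrays. The lowest of the 8 CAV1 blocker arrays, at 8.92, lay above the highest of the 8 control blocker arrays, at 8.75. Group means were 9.19 ± 0.22 (n = 6) with the CAV1 blocker and 8.51 ± 0.03 (n = 6) with the control blocker after bleomycin, a difference of 0.68 or 1.60-fold. After PBS they were 9.38 ± 0.19 (n = 2) with the CAV1 blocker and 8.66 ± 0.12 (n = 2) with the control blocker, a difference of 0.72 or 1.65-fold. The spread among bleomycin arrays was wider with the CAV1 blocker (SD 0.22) than with the control blocker (SD 0.03), a description of 6 arrays each.

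Bleomycin against PBS gave no call for Calcrl. The difference was -0.18 under the CAV1 blocker (limma, adjusted p = 0.543) and -0.15 under the control blocker (95% confidence interval -0.42 to 0.13, adjusted p = 0.609). Under the CAV1 blocker the bleomycin and PBS arrays overlapped, and under the control blocker the bleomycin arrays, at most 8.56, lay just below both PBS arrays. The order of the means was PBS CAV1 blocker, bleomycin CAV1 blocker, PBS control blocker and bleomycin control blocker. The CAV1 blocker groups overlapped with each other, whereas the control blocker groups did not.

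Calcrl is known from vessel cells, so endothelial markers are given beside it. The 15 blood endothelium markers had a mean log2 signal of 12.49 to 12.76 in bleomycin CAV1 blocker arrays, 12.45 to 12.69 in bleomycin control blocker arrays, 12.92 and 12.92 in PBS CAV1 blocker arrays and 12.72 and 12.96 in PBS control blocker arrays. None of the 15 passed the test between the blockers after bleomycin (1 at an unadjusted p under 0.05) or after PBS (3), in limma. Across all genes 1.61% passed after bleomycin and 0.31% after PBS, and 9.08% after bleomycin and 12.8% after PBS were at an unadjusted p under 0.05. Of the 15 markers, 12 had positive differences after bleomycin (median 0.08) and 11 after PBS (median 0.18), the direction of Calcrl and Ramp2. Of 9 markers of capillary subsets, 8 were positive after bleomycin (median 0.15) and 6 after PBS (median 0.16), with 0 passing limma and 1 at an unadjusted p under 0.05 in each. The median over all genes was -0.01 after bleomycin and 0.04 after PBS. The part of these markers in the differences of Calcrl and Ramp2 was not tested. With this mean as a covariate, chosen after seeing the data, the Calcrl difference between the blockers was 0.62 after bleomycin and 0.65 after PBS. In whole lung, fewer cells of a type and less RNA per cell cannot be told apart.

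**Figure D2:**
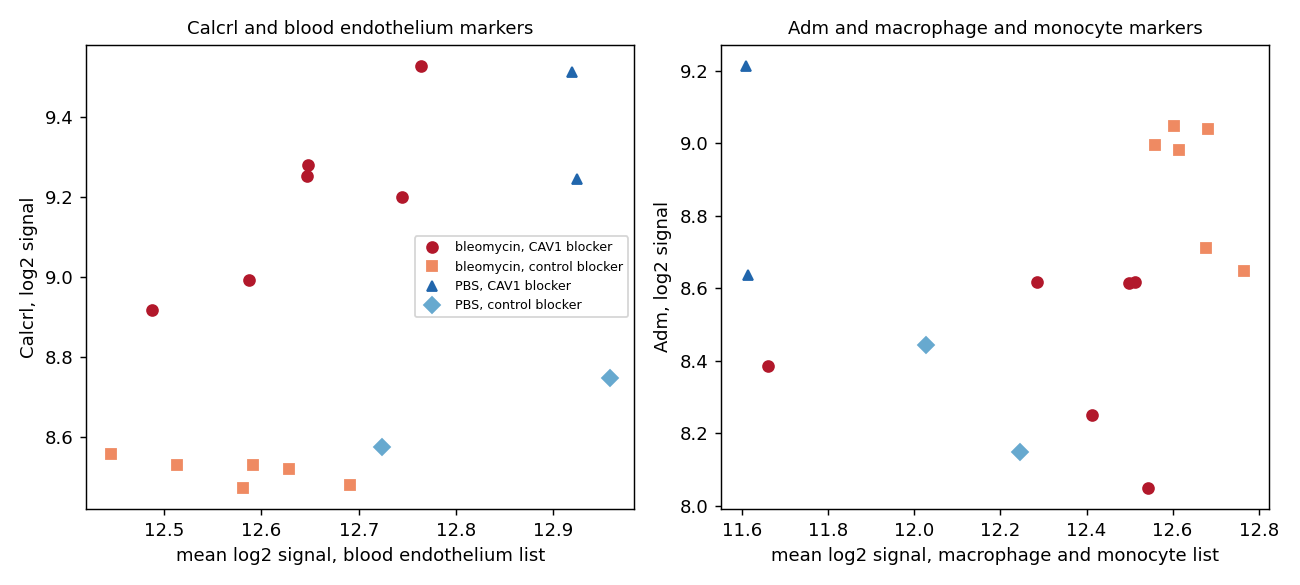
Left, Calcrl log2 signal (y axis) against the mean log2 signal of 15 blood endothelium markers (x axis), 1 point per array. Right, Adm log2 signal against the mean of 9 macrophage and monocyte markers. On the left the marker means of the bleomycin groups overlap, at 12.49 to 12.76 with the CAV1 blocker and 12.45 to 12.69 with the control blocker. On the right they do not, at 11.66 to 12.54 with the CAV1 blocker and 12.56 to 12.77 with the control blocker.

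Ramp2 (chr11:101246334-101248250), whose protein makes Calcrl an adrenomedullin receptor, was also higher with the CAV1 blocker, by less. Its signal was 15.39 to 15.82, with a median of 15.47, in bleomycin CAV1 blocker arrays and 15.22 to 15.36, with a median of 15.32, in bleomycin control blocker arrays. It was 15.86 and 15.91 in PBS CAV1 blocker arrays and 15.37 and 15.75 in PBS control blocker arrays. Neither pair of groups overlapped, but after bleomycin the gap was that between 15.39 and 15.36. The differences between the blockers were 0.22 after bleomycin and 0.33 after PBS, and the value after PBS was 0.14 when PBS control blocker array 2 was left out and 0.52 when array 1 of that group was. Bleomycin CAV1 blocker array 1 was the highest bleomycin array for both Ramp2 (15.82) and Calcrl (9.53). Without it the Ramp2 difference after bleomycin was 0.17 and the Calcrl difference 0.61.

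Bleomycin arrays were lower in Ramp2 than PBS arrays without overlap under both blockers, but the fit over all genes made no call. The difference was -0.35 under the CAV1 blocker (95% confidence interval -0.59 to -0.11, limma adjusted p = 0.146) and -0.25 under the control blocker (-0.49 to -0.01, adjusted p = 0.289). Without bleomycin CAV1 blocker array 1 the difference under the CAV1 blocker was -0.41 and passed (adjusted p = 0.0323). Under the control blocker it was -0.06 without PBS control blocker array 1 (adjusted p = 0.778) and -0.44 without array 2 (adjusted p = 0.207). The order of the means was PBS CAV1 blocker, PBS control blocker, bleomycin CAV1 blocker and bleomycin control blocker. The second and the third overlapped, since the lower PBS control blocker array, at 15.37, lay below every bleomycin CAV1 blocker array.

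Ramp1 (chr1:91179822-91225196), the partner in the CGRP receptor, stood apart in the PBS control blocker group. Its brightest spot read 11.13 to 11.48, with a median of 11.21, in bleomycin CAV1 blocker arrays, and 11.10 to 11.36, with a median of 11.23, in bleomycin control blocker arrays. It read 11.11 and 11.13 in PBS CAV1 blocker arrays and 11.52 and 11.81 in PBS control blocker arrays. Both PBS control blocker arrays were above the other 14, whose groups overlapped. From highest to lowest the means were 11.67 ± 0.20 (PBS control blocker, n = 2), 11.27 ± 0.16 (bleomycin CAV1 blocker, n = 6), 11.24 ± 0.10 (bleomycin control blocker, n = 6) and 11.12 ± 0.01 (PBS CAV1 blocker, n = 2). The differences between the blockers were 0.03 after bleomycin and -0.55 after PBS. Bleomycin against PBS gave 0.15 under the CAV1 blocker (limma, adjusted p = 0.576) and -0.43 under the control blocker (95% confidence interval -0.67 to -0.19, adjusted p = 0.0645). Without PBS control blocker array 1 the difference under the control blocker was -0.57 and passed (adjusted p = 0.0164), in a fit that called 4075 genes where that over all arrays called 489. Without array 2 of that group it was -0.28 and did not pass (adjusted p = 0.497).

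The 3 Ramp1 spots did not give 1 pattern. For bleomycin against PBS under the control blocker the dimmest spot gave -0.32 and the second, annotated to another transcript, 0.31 (limma over spots, adjusted p = 0.232 and 0.446). Between the blockers after PBS the second spot gave -0.11 and the dimmest -0.26, against -0.55 for the brightest. The second spot read 7.37 to 8.09 in bleomycin CAV1 blocker arrays, 7.49 to 8.08 in bleomycin control blocker arrays, 7.17 and 7.51 in PBS CAV1 blocker arrays and 7.32 and 7.58 in PBS control blocker arrays, so its groups overlapped.

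Ramp3 (chr11:6658506-6677478), the other partner in adrenomedullin receptors, overlapped between the blockers after bleomycin and after PBS. Its brightest spot read 9.71 to 10.07, with a median of 9.81, in bleomycin CAV1 blocker arrays and 9.75 to 10.07, with a median of 9.90, in bleomycin control blocker arrays. It read 9.76 in both PBS CAV1 blocker arrays, and 9.59 and 10.02 in PBS control blocker arrays. All 4 groups overlapped or lay within the range of another, with differences between the blockers of -0.05 after bleomycin and -0.04 after PBS. The value after PBS turned to 0.18 without PBS control blocker array 1 and came to -0.26 without array 2. Bleomycin against PBS gave 0.10 under the CAV1 blocker (limma, adjusted p = 0.776) and 0.10 under the control blocker (adjusted p = 0.727). The second Ramp3 spot gave -0.02 between the blockers after bleomycin and -0.08 after PBS. For bleomycin against PBS it gave 0.11 under the CAV1 blocker and 0.05 under the control blocker.

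**Figure D3:**
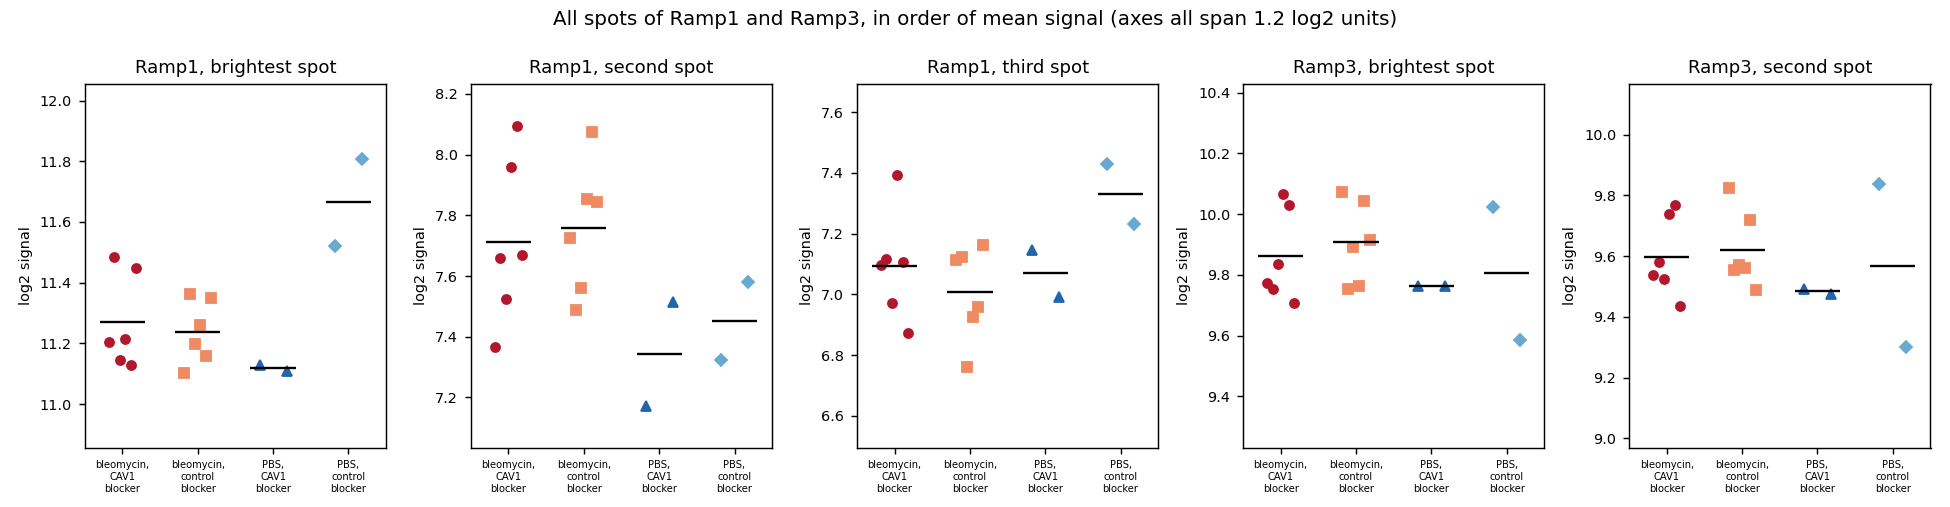
Log2 signal (y axis) of the 3 Ramp1 spots and the 2 Ramp3 spots in each array, by group (x axis), with a line at the group mean. The brightest and the third Ramp1 spots have their highest mean in the PBS control blocker arrays and the second does not, while the 2 Ramp3 spots follow each other.

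Taking the 6 genes side by side after bleomycin, Calcrl and Ramp2 were higher and Adm lower with the CAV1 blocker without overlap, 3 of 6, where 2.33% of all genes tested were without overlap. After PBS, with 2 arrays a group, Adm, Adm2, Calcrl and Ramp2 were higher and Ramp1 lower, 5 of 6, where 38.5% of all genes were without overlap. The members were chosen on these comparisons, and both use the same samples as the comparisons with PBS. For bleomycin against PBS, 2 of 6 genes (Adm and Ramp2, both lower) were without overlap under the CAV1 blocker, against 20.7% of all genes. Under the control blocker 4 of 6 were (Adm higher, and Calcrl, Ramp1 and Ramp2 lower), against 12.6% of all genes. The 5 members other than Adm gave 0 calls in limma in either of these, where 0.517% of genes passed under the CAV1 blocker and 2.41% under the control blocker. At an unadjusted p under 0.05 there were 2 under the CAV1 blocker, Adm2 and Ramp2, and 2 under the control blocker, Ramp1 and Ramp2. Over all genes tested, 14.8% were at this threshold under the CAV1 blocker and 15.9% under the control blocker.

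**Figure D4:**
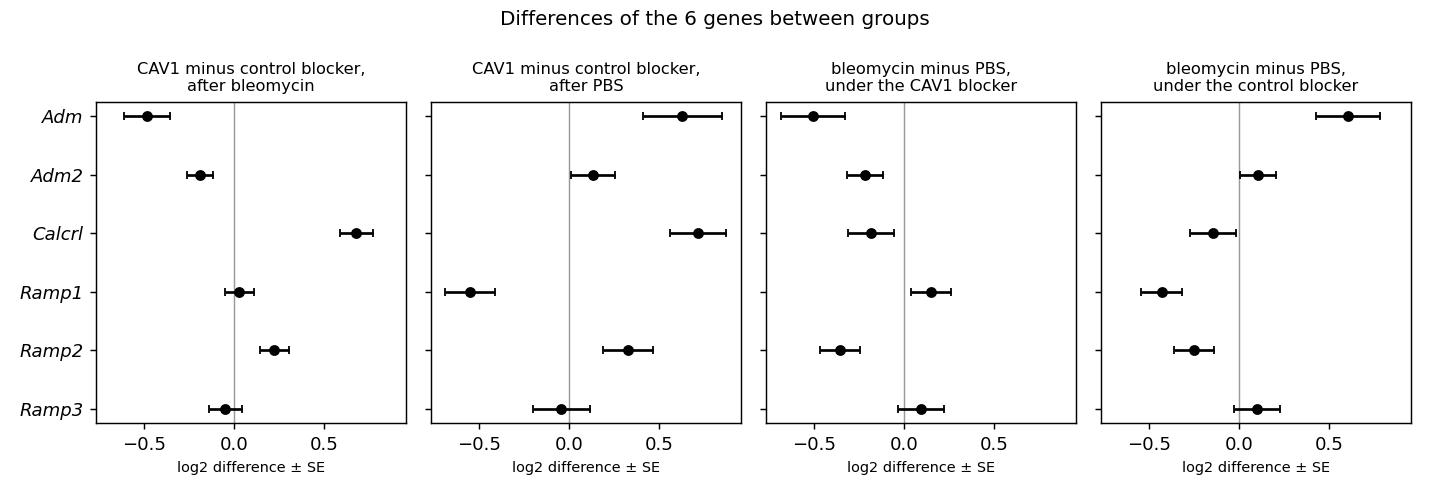
Log2 difference with its standard error (x axis) of the brightest spot of each of the 6 genes (y axis) in 4 comparisons, 1 per panel. Calcrl is at 0.68 and 0.72 between the blockers, and Adm is at -0.48 after bleomycin and 0.63 after PBS.

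The other calcitonin family genes, 7 in all, included 1 that rose with bleomycin, Calca, which encodes the CGRP and calcitonin precursors. Among all genes tested, 0.517% passed limma with bleomycin under the CAV1 blocker and 2.41% under the control blocker. CGRP is the ligand of the receptor that Calcrl forms with Ramp1. The brighter Calca spot read 7.46 to 8.15, with a median of 7.87, in bleomycin CAV1 blocker arrays and 7.64 to 8.12, with a median of 7.92, in bleomycin control blocker arrays. It read 6.89 and 7.10 in PBS CAV1 blocker arrays and 6.80 and 6.93 in PBS control blocker arrays. Every bleomycin array lay above all 4 PBS arrays, and the blockers overlapped after bleomycin. Calca rose with bleomycin by 0.86 under the CAV1 blocker (1.82-fold, SE 0.168, limma adjusted p = 0.0417) and by 1.06 under the control blocker (2.09-fold, SE 0.168, 95% confidence interval 0.70 to 1.42, adjusted p = 0.0107). The second spot, annotated to another transcript of the gene, gave 0.44 under the CAV1 blocker (limma over spots, adjusted p = 0.0787) and 0.74 under the control blocker (adjusted p = 0.00675).

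The Calca call under the control blocker held whichever of the 16 arrays was left out (adjusted p = 0.00132 to 0.0440), but not without the 5 arrays low in muscle markers (1.02, adjusted p = 0.0763) or with the endothelium covariate (1.02, adjusted p = 0.5257). The call under the CAV1 blocker was lost without either PBS CAV1 blocker array, without any of bleomycin CAV1 blocker arrays 2 to 6 and without any of bleomycin control blocker arrays 1, 2, 3, 4 and 6, where the adjusted p came to between 0.0509 and 0.311. It was also lost in a fit to the compared arrays only (0.86, adjusted p = 0.147) and with the skeletal muscle covariate (1.09, adjusted p = 0.0932). Between the blockers Calca gave -0.07 after bleomycin and 0.13 after PBS and made no call. The interaction made no call for Calca. Bleomycin and PBS did not overlap in the endothelium mean under either blocker, nor in the muscle mean under the CAV1 blocker. These covariates thus cannot be fully told apart from bleomycin.

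**Figure D5:**
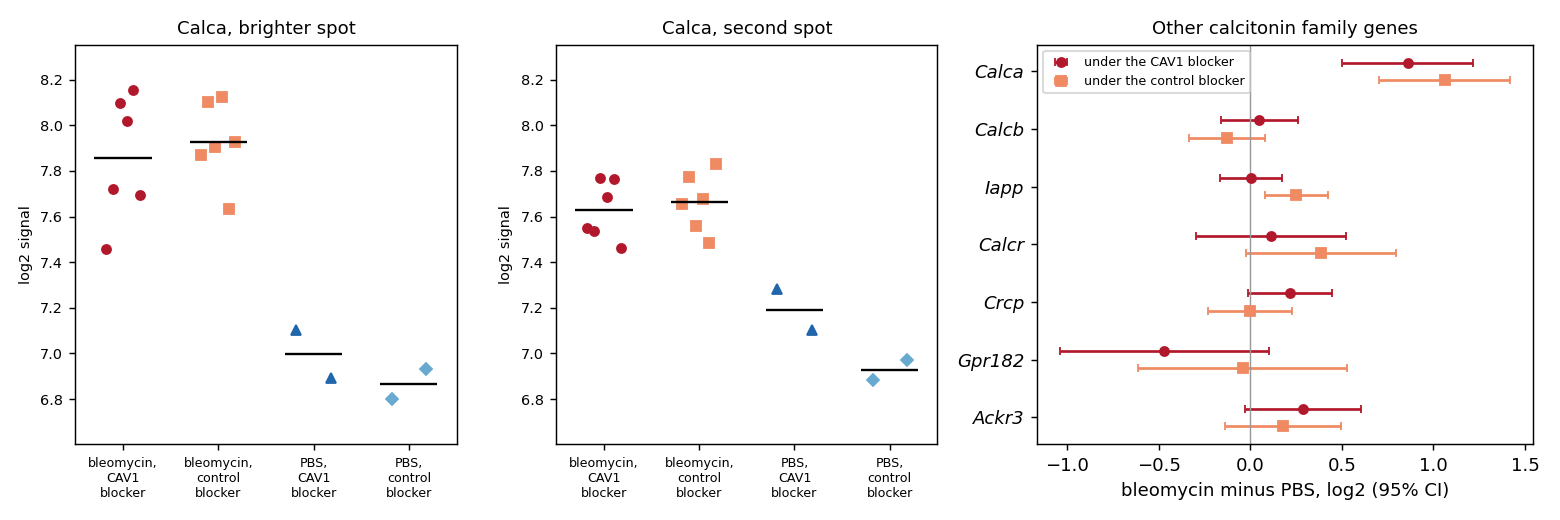
Left and middle, log2 signal (y axis) of the 2 Calca spots in each array, by group (x axis), with a line at the group mean. Right, bleomycin minus PBS (x axis, log2 difference with 95% confidence interval) of the 7 other calcitonin family genes (y axis) under each blocker. All 12 bleomycin arrays lie above all 4 PBS arrays in both Calca spots.

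The remaining family genes made no call in any of these comparisons. With bleomycin, Iapp, the precursor of the islet hormone amylin, gave 0.00 under the CAV1 blocker and 0.25 under the control blocker (adjusted p = 0.12). Calcb, the other CGRP gene, gave 0.05 under the CAV1 blocker and -0.13 under the control blocker, and Calcr, the calcitonin receptor, gave 0.11 under the CAV1 blocker and 0.38 under the control blocker. Ackr3, a scavenging receptor that also takes up adrenomedullin, gave 0.29 under the CAV1 blocker and 0.18 under the control blocker. Gpr182, a receptor of endothelium, gave -0.47 under the CAV1 blocker and -0.04 under the control blocker, and Crcp, which aids signalling by the CGRP receptor, 0.22 under the CAV1 blocker and 0.00 under the control blocker. The family median for bleomycin against PBS was 0.11 under the CAV1 blocker and 0.18 under the control blocker. Over all genes it was -0.01 under the CAV1 blocker and 0.03 under the control blocker.

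Genes downstream of the receptor and genes that handle the peptides made no call. Of 22 signalling genes (adenylyl cyclases, protein kinase A, cyclic AMP-gated exchange factors, arrestins, phosphodiesterases and others), 0 passed limma in the 4 comparisons. At an unadjusted p under 0.05 there were 2 for bleomycin under the CAV1 blocker, 3 under the control blocker, 1 between the blockers after bleomycin and 3 after PBS. As shares of the 22 these were near or below those over all genes tested, which were 14.8%, 15.9%, 9.08% and 12.8% in the same order. Their median differences lay between -0.03 and 0.05. Of 5 peptide handling genes tested, 0 passed, and at an unadjusted p under 0.05 there was 1 for bleomycin under the control blocker (Ece1, -0.80) and 1 between the blockers after bleomycin (Pam). Pam, which amidates adrenomedullin to its active form, gave 0.47 between the blockers after bleomycin (adjusted p = 0.434) and -0.18 after PBS. Of 10 other receptors reported to bind RAMPs in other systems, 0 passed in these comparisons, with 3 at an unadjusted p under 0.05 for bleomycin under the CAV1 blocker, 1 under the control blocker and 0 between the blockers.

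Adm is a known target of hypoxia signalling, and 16 genes of that response are given beside it. None passed limma in any of the 4 comparisons. At an unadjusted p under 0.05 there were 4 for bleomycin under the CAV1 blocker, 8 under the control blocker, 1 between the blockers after bleomycin and 0 after PBS. Over all genes tested the shares were 14.8%, 15.9%, 9.08% and 12.8% in the same order. Under the control blocker, where Adm differed by 0.61, Hif1a, the oxygen-sensitive transcription factor, gave 0.50 (adjusted p = 0.113), and Car9, a carbonic anhydrase, 0.47 (adjusted p = 0.0986). Slc2a1, the glucose transporter, gave 0.48 (adjusted p = 0.168), while Vegfa gave -0.06 and Pfkfb3 -0.37. Of the 16 genes 7 had positive differences there, and their median was -0.01. After bleomycin, where Adm differed by -0.48 between the blockers, Slc2a1 gave -0.26 (adjusted p = 0.538), Hif1a 0.06 and Car9 -0.11. The median of the 16 was 0.00 in that comparison and 0.10 after PBS.

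Macrophage and monocyte markers moved with Adm in part, and their part in its differences was not tested. The mean of the 9 markers tested (Ly6c2 was not) was 11.66 to 12.54 in bleomycin CAV1 blocker arrays and 12.56 to 12.77 in bleomycin control blocker arrays, without overlap and in the direction of Adm. The nearest pair, 12.54 and 12.56, nearly touched. The lowest value was that of bleomycin CAV1 blocker array 1, and the next lowest of that group was 12.285. The marker mean was 11.61 in both PBS CAV1 blocker arrays and 12.03 and 12.25 in PBS control blocker arrays, the direction opposite to Adm. Itgam, an integrin of myeloid cells, fell by 0.94 with the CAV1 blocker after bleomycin (limma, adjusted p = 0.00271), and 7 of the 9 markers were lower in each blocker comparison. With bleomycin Trem2 rose by 2.25 under the CAV1 blocker (adjusted p = 0.0432) and by 1.85 under the control blocker (adjusted p = 0.0469). Spp1, which encodes osteopontin, rose by 2.91 under the control blocker (adjusted p = 0.0302), and it gave 2.81 under the CAV1 blocker, short of the threshold (adjusted p = 0.0575). Marco, a scavenger receptor of alveolar macrophages, fell by 0.99 under the control blocker (adjusted p = 0.0253) and gave -0.35 under the CAV1 blocker (adjusted p = 0.462). Of all genes tested, 1.61% passed between the blockers after bleomycin. With bleomycin 0.517% passed under the CAV1 blocker and 2.41% under the control blocker.

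Most blood endothelium and capillary markers had negative differences with bleomycin, as did Calcrl and Ramp2. Lymphatic endothelium markers did not. Of the 6 tested, 5 had positive differences under the CAV1 blocker (median 0.05) and 3 under the control blocker (median 0.03). The blood endothelium median for bleomycin against PBS was -0.31 under the CAV1 blocker and -0.29 under the control blocker. Kdr, the main vascular endothelial growth factor receptor, fell by 0.65 under the CAV1 blocker (limma, adjusted p = 0.0494), and Sox17, an arterial transcription factor, rose by 0.44 under the control blocker (adjusted p = 0.0414). All 9 markers of capillary subsets were negative under both blockers, with medians of -0.42 under the CAV1 blocker and -0.46 under the control blocker and 0 passing (4 and 3 at an unadjusted p under 0.05). Over all genes tested, 14.8% under the CAV1 blocker and 15.9% under the control blocker were at an unadjusted p under 0.05. The shares that passed limma were 0.517% under the CAV1 blocker and 2.41% under the control blocker. The blood endothelium mean itself was lower with bleomycin than with PBS, without overlap, under each blocker. As a covariate it cannot be fully told apart from bleomycin. With it in the fit, the Calcrl difference with bleomycin was 0.065 under the CAV1 blocker and 0.094 under the control blocker. The part of endothelium in the Calcrl values was not tested. Of 6 lymphatic endothelium markers tested (Ccl21a was not), 8 smooth muscle markers and 7 pericyte markers, 0 passed in the 4 comparisons. Mmrn1 of lymphatic endothelium gave 0.53 for bleomycin under the control blocker (adjusted p = 0.075).

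Muscle and squamous markers had unequal levels in all 4 comparisons. The median difference of the 12 skeletal muscle markers was 0.56 between the blockers after bleomycin and -3.72 after PBS, and with bleomycin 2.60 under the CAV1 blocker and -1.65 under the control blocker. That of the 10 squamous markers was 0.79 between the blockers after bleomycin and -4.88 after PBS, and with bleomycin 4.40 under the CAV1 blocker and -1.27 under the control blocker. The muscle gene Mybpc2 rose with bleomycin by 2.26 under the CAV1 blocker (limma, adjusted p = 0.0247) and fell by 2.28 with the CAV1 blocker after PBS (adjusted p = 0.0454), and the squamous gene Sprr1a rose with bleomycin by 3.38 under the CAV1 blocker (adjusted p = 0.0432). Among all genes tested, 0.517% passed with bleomycin under the CAV1 blocker and 0.31% between the blockers after PBS. The part of the muscle and squamous markers in the members' differences was not tested. With the skeletal muscle mean as a covariate the Calcrl difference between the blockers was 0.69 after bleomycin and 0.67 after PBS. That of Adm was -0.51 after bleomycin and 0.85 after PBS. After PBS this mean was 6.98 and 7.16 with the CAV1 blocker and 12.07 and 9.85 with the control blocker. The muscle level and the blocker cannot be told apart there. Without the 5 arrays low in muscle markers, the differences after bleomycin were 0.67 for Calcrl, -0.49 for Adm and 0.21 for Ramp2. After PBS no value could be had without them, since both CAV1 blocker arrays are among the 5.

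The genes most like each member over the 16 arrays were found by Pearson r of log2 signal, as a description with the group structure and the arrays shared. Calcrl was most like Cyth3 (r = 0.95), an exchange factor for Arf proteins, H4c4 (r = 0.94), a histone H4 gene whose near-identical copies make its signal uncertain, and Prkg1 (r = 0.94), a kinase driven by cyclic GMP. Cyth3 averaged 10.09 ± 0.22 in bleomycin CAV1 blocker arrays, 9.09 ± 0.16 in bleomycin control blocker arrays, 10.40 ± 0.14 in PBS CAV1 blocker arrays and 9.70 ± 0.18 in PBS control blocker arrays. Prkg1 averaged 9.12 ± 0.12 in bleomycin CAV1 blocker arrays, 8.22 ± 0.13 in bleomycin control blocker arrays, 9.30 ± 0.07 in PBS CAV1 blocker arrays and 8.48 ± 0.22 in PBS control blocker arrays. Like Calcrl, both had their highest mean with PBS and the CAV1 blocker and their lowest with bleomycin and the control blocker.

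Adm was most like Samd9l (r = 0.87), Phf11d (r = 0.84) and Capn2 (r = 0.83), the last a calpain protease. Samd9l averaged 12.60 ± 0.10 in bleomycin CAV1 blocker arrays, 12.73 ± 0.07 in bleomycin control blocker arrays, 12.73 ± 0.09 in PBS CAV1 blocker arrays and 12.52 ± 0.12 in PBS control blocker arrays. Its means spanned a narrower range than those of Adm, and like Adm it was lowest with PBS and the control blocker. Ramp2 was most like Capn13, Gsta3, a glutathione transferase, and Stxbp6 (r = 0.93 each), Ramp1 most like Deptor (r = 0.89), an inhibitor of mTOR, Sec14l2 (0.86) and Med4 (0.85). Ramp3 was most like Ccdc88b (r = 0.84), Trim59 (0.84) and Incenp (0.83), a protein of dividing cells, and Adm2 most like Nom1 (0.72), Magea8 (0.70) and Prss30 (0.69). When deviations from the group means were used instead, 0 of these 3 genes stayed among the 3 most alike for each member except Calcrl, for which Cyth3 did.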

How the data were processed

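Total RNA of whole lung was measured on 16 single-colour Agilent arrays. The deposited values are log2 intensities, made with limma per the submitters' processing notes (version not given); background correction and slides were not given in the sources used here. They were used as deposited. Array medians were 6.51 to 6.52, and precision is set by how few arrays there are.

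Of 62976 spots, 31465 carried 1 gene symbol and 31511 none. RefSeq transcript accessions matched 29036 named spots (2429 kept their own symbol), giving 20863 genes, each represented by its brightest spot. The 20304 genes above the 25th percentile in at least 2 arrays were tested, with 1 mean per group over 16 arrays (limma 3.58.1, R 4.3.3, 12 residual degrees of freedom, moderated, two-sided, Benjamini-Hochberg over all genes, threshold 0.05). The fit was tested on simulated data.

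The members and lists were chosen with earlier results of these data known. Named genes are the members, the 3 genes most like each, list members called in a comparison, and further list members given as examples after their values were seen. The adipocyte list, the endothelium covariate and leaving out 5 arrays were added after seeing the data. Other alternatives were the dim filter, spot choice, normalization, moderation, array weights, a muscle covariate, replicate number as a block, a fit to the compared arrays and leaving out each array.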

Additional observations from a re-analysis of the deposited data

Results flagged for a closer look

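The effect of bleomycin on Adm ran opposite ways under the blockers. It was -0.50 (log2) under the CAV1 blocker, where all 6 bleomycin arrays lay below both PBS arrays, though the nearest pair was 8.62 and 8.64. It was 0.61 under the control blocker, where all 6 lay above. Over all genes, 20.7% were without overlap under the CAV1 blocker and 12.6% under the control blocker. Put the other way, the CAV1 blocker gave -0.48 after bleomycin and 0.63 after PBS. These are the same 16 arrays read in either direction, the gene was picked for its response, and the difference between the effects is a description. The interaction fit made 0 calls over all genes, a count that changed with single arrays left out and is not read as a test of Adm. Marker medians with bleomycin also had opposite signs under the blockers. They were 2.60 (CAV1 blocker) and -1.65 (control blocker) for skeletal muscle, and 4.40 and -1.27 for squamous epithelium. The part of these markers in the Adm values was not tested. None of the 18 sets of 6 bleomycin arrays, 1 per spot and blocker, held an array that was flagged as standing apart. Single arrays still carried weight. Bleomycin CAV1 blocker array 1 read 15.82 for Ramp2, where the next highest of that group read 15.62. Without this array, genes called with bleomycin under the CAV1 blocker went from 105 to 719.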

How the results depend on the processing

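Calcrl was picked for its rise with the CAV1 blocker, so its values between the blockers are a description here too. That difference stayed positive in every alternative run. Leaving out 1 array could not turn its sign, since every CAV1 blocker array lay above every control blocker array. Leaving out 1 array gave 0.61 to 0.74 after bleomycin and 0.58 to 0.85 after PBS, and -0.32 to -0.05 with bleomycin under the CAV1 blocker and -0.23 to -0.06 under the control blocker. For Adm the ranges were -0.53 to -0.41 after bleomycin, 0.34 to 0.92 after PBS, -0.79 to -0.22 with bleomycin under the CAV1 blocker and 0.46 to 0.76 under the control blocker. The blood endothelium covariate did not overlap between bleomycin and PBS under either blocker, so it cannot be fully told apart from bleomycin. With it, Adm with bleomycin came to -0.81 under the CAV1 blocker and 0.31 under the control blocker. Calcrl turned to 0.065 under the CAV1 blocker and 0.094 under the control blocker, and Ramp3 to -0.23 under the CAV1 blocker and -0.21 under the control blocker. Ramp3 with bleomycin under the control blocker was also -0.12 without PBS control blocker array 2 and 0.32 without array 1, and the second Ramp1 spot gave 0.31 there. The causes were not tested.

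Genes called with bleomycin numbered 105 under the CAV1 blocker and 489 under the control blocker, and those called between the blockers 327 after bleomycin and 63 after PBS. Under the CAV1 blocker they became 164 with the 50th percentile filter, 0 with the compared arrays only, 10 with the muscle covariate and 2465 with the endothelium covariate. Under the control blocker they became 215 with the compared arrays only, 254 with the muscle covariate, 3 with the endothelium covariate and 9 without the 5 arrays low in muscle markers. After bleomycin they became 65 without those 5 arrays, and after PBS 3 with the compared arrays only, 5 with the muscle covariate and 376 with the endothelium covariate. Leaving out 1 array gave 10 (bleomycin CAV1 blocker array 5) to 719 (array 1 of that group) under the CAV1 blocker, 91 (PBS control blocker array 2) to 4075 (array 1 of that group) under the control blocker, 249 to 394 after bleomycin and 34 to 4024 after PBS. The interaction had 0 genes in limma (1873 at an unadjusted p under 0.05) and 0 to 3011 with 1 array left out, the most without PBS control blocker array 1.

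Deviations of same-numbered bleomycin arrays correlated at -0.69 to 0.35. These values cannot tell whether the replicate numbers pair the samples, since unequal muscle and squamous levels also enter the deviations. With the replicate number as a block the counts were 0 with bleomycin under the CAV1 blocker, 1 under the control blocker, 212 between the blockers after bleomycin and 14 after PBS, and Calca came to an adjusted p of 0.483 under the CAV1 blocker and 0.258 under the control blocker. Adm2 had no value under the 50th percentile filter, and comparisons that use the PBS CAV1 blocker arrays had none without the 5 low arrays. With 2 PBS arrays per blocker and no detection marks, dim spots such as Adm2 are the least resolved.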

Other observations

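The mean of the 8 white adipocyte genes, a list added after seeing the data, was 8.50 to 9.73 in bleomycin CAV1 blocker arrays, 8.40 to 9.44 in bleomycin control blocker arrays, 9.44 and 9.95 in PBS CAV1 blocker arrays and 9.80 and 10.08 in PBS control blocker arrays. All 8 genes, Adipoq and Lep among them, had negative differences with bleomycin under both blockers, with medians of -0.46 under the CAV1 blocker and -1.08 under the control blocker. None passed limma, with 0 at an unadjusted p under 0.05 under the CAV1 blocker and 6 under the control blocker. Over all genes tested, 0.517% passed under the CAV1 blocker and 2.41% under the control blocker, and 14.8% and 15.9% were at an unadjusted p under 0.05.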
